A study of Mus musculus with 18 samples.

Results

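The results concern 72 nuclear genes for subunits of the mitochondrial respiratory chain and ATP synthase, of 24052 genes listed in each count table. They were chosen by symbol, as the genes that start with Ndufa, Ndufb, Ndufc, Ndufs, Ndufv, Uqcr, Cox4i, Cox5, Cox6, Cox7, Cox8 or Atp5, without Ndufaf assembly factors and pseudogenes, at a mean CPM (counts scaled to a common library total) of 5 or more over the libraries of an experiment. Of 82 symbols that matched, 1 was a pseudogene and 9 were under 5 CPM in both experiments. By symbol, 36 members belonged to complex I, 8 to complex III, 11 to complex IV and 17 to the ATP synthase. The complex I group includes Ndufa4, which is known as a subunit of complex IV, and Ndufab1, the mitochondrial acyl carrier protein. The complex IV group includes Cox7a2l, a factor that joins complexes III and IV into supercomplexes. All 72 members passed the filter on low counts in both experiments. Nearest above the threshold in experiment 1 were Cox7c at 6.03 CPM and Ndufs8 at 7.63 CPM, and nearest below it was Cox7a1, the heart and muscle form, at 1.21 CPM. In experiment 2, Atp5g1 at 4.22 CPM and Ndufs8 at 3.94 CPM fell under it. Ndufb1, Ndufb4b, Ndufb4c and the mitochondrially encoded subunit mRNAs were not analysed here.

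The cells were bone marrow-derived macrophages of C57BL/6 mice, grown out of marrow precursors in 20 ng/ml M-CSF, a macrophage growth factor. Experiment 1 used wild-type cells in 4 groups: dimethyl itaconate (DI) at 0.25 mM for 12 h followed by LPS (E. coli 0111:B4) at 100 ng/ml for 4 h (DI+LPS), LPS for 4 h after vehicle (LPS), DI without LPS (DI), and vehicle alone (vehicle). DI is an ester of itaconate, a metabolite of activated macrophages. Experiment 2 set Irg1-/- cells against wild-type cells (WT), both given LPS at 100 ng/ml and interferon gamma at 50 ng/ml for 24 h. Irg1 is listed as Acod1, the enzyme that makes itaconate. Each of the 6 groups had 3 libraries, 18 in all, and the labels do not say whether these came from separate animals or cultures. P-values therefore measure the spread between these libraries, which may be technical.

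Complex I takes electrons from NADH and complex II from succinate, complex III passes them to cytochrome c, and complex IV hands them to oxygen. The proton gradient that complexes I, III and IV build drives the ATP synthase. Inflammatory activation of macrophages is known for a shift away from oxidative phosphorylation, and itaconate is known as an inhibitor of succinate dehydrogenase, which is complex II.

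Libraries held 955718 to 7629669 counts in experiment 1 and 3088644 to 5491684 in experiment 2. LPS replicate 3 stood apart: it held 955718 counts, of which 3335 came from members, a median of 23.5 per member, and 6 members were at 0 in it (Atp5j, Atp5pb, Ndufab1, Ndufs8, Ndufv2 and Cox7c). LPS replicate 2 had 2 members at 0, Ndufs8 and Cox5b, and no member was at 0 in the other 16 libraries. Log2 levels of replicates correlated at 0.782 to 0.890 in the LPS group and at 0.933 or more elsewhere. All 10 macrophage markers had counts in every group, summing to 7056 to 13051 CPM in experiment 1 and 6479 to 8248 CPM in experiment 2. The 5 erythroid markers were at 0, T and NK cell markers summed to at most 0.641 CPM and B cell markers to at most 2.82 CPM. Neutrophil and progenitor markers summed to 271 to 395 CPM in DI+LPS, 249 to 361 in LPS, 155 to 251 in DI and 265 to 352 in vehicle libraries. Dendritic cell markers summed to 26.9 to 30.6 CPM in DI+LPS, 13.9 to 32.7 in LPS, 9.08 to 19.9 in DI and 8.49 to 14.3 in vehicle libraries, with Flt3 at 0, and to 18.3 to 27.8 CPM in Irg1-/- and 27.4 to 38.1 in WT libraries. Stromal cell markers summed to 27.9 to 41.9 CPM in DI+LPS, 34.8 to 69.0 in LPS, 20.8 to 26.1 in DI and 30.4 to 58.8 in vehicle libraries. The part of these markers in the results was not tested. In experiment 2, Acod1 was at 28.4, 14.8 and 31.4 CPM in Irg1-/- and at 4131, 4665 and 4225 CPM in WT libraries, in the direction of the labels (log2 fold change -7.43 ± 0.32 SE, adjusted p = 4.8e-07).

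Promoters of 3 genes are shown because the results turn on the first pair and because the third carries the NRF1 letters 3 times, the most of any member. The windows run from 250 bases before to 50 bases after the annotated start, from RefSeq on GRCm38.p6, and capitals mark the letters found. Ndufs4 (Entrez gene 17993) spans chr13:114287795-114388094 and its window is chr13:114388045-114388344 on the minus strand, with the YY1 letters at position 36 after the start. AA467197 (Entrez gene 433470), also called Nmes1, is a small mitochondrial protein related to NDUFA4 and hosts Mir147. It spans chr2:122637887-122641076 and its window is chr2:122637637-122637936 on the plus strand, with an E-box 82 bases before the start. The window of Ndufb4, a complex I accessory subunit, is chr16:37654319-37654618 on the minus strand, with the NRF1 letters 191, 79 and 22 bases before the start.
Ndufs4: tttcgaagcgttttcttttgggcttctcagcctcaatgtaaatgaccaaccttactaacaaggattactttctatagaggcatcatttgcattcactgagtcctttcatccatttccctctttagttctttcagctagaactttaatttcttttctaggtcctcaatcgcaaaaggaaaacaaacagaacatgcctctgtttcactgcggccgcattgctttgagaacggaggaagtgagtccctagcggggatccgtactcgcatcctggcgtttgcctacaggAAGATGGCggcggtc
AA467197: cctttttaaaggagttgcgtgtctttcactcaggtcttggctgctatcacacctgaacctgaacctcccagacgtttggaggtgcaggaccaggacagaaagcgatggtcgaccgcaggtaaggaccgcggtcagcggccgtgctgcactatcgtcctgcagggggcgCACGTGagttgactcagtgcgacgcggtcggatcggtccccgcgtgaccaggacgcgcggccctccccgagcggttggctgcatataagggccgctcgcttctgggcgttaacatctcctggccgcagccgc
Ndufb4: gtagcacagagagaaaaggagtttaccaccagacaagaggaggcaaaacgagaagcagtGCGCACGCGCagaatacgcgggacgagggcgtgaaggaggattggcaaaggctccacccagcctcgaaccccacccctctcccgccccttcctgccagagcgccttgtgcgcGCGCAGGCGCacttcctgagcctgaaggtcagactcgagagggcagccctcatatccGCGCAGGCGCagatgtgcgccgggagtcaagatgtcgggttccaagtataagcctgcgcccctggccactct

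Windows were on hand for 61 of the 72 members. On either strand, the letters of NRF1, a factor known to drive respiratory genes and shown in capitals in the Ndufb4 window, stood in 14 of the 61 (23.0%), against 12.7% of 8335 genes tested and 5.19% of all 27025 genes with a window. The YY1 letters AAGATGGC stood in 10 (16.4%), against 5.82% and 3.19%. The ETS letters CCGGAAG, which can share their last bases with the YY1 letters where both adjoin, stood in 15 (24.6%), against 22.4% and 9.93%. The NF-kB letters stood in 1 member (1.64%), against 1.60% and 1.38%, and the E-box CACGTG in 6 (9.84%), against 12.3% and 8.09%. These are matches of letters and were set against no test.

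Levels are given as CPM on library totals scaled by TMM, a method that sets the bulk of genes level between libraries. They count transcript 3′ ends and are compared here between groups, not between genes. The members with the highest mean CPM of their complex in experiment 1 were Ndufa4, Uqcrh (the hinge subunit of complex III), Cox6c (a small complex IV subunit) and Atp5k (subunit e of the ATP synthase). The median SD over replicates of the log2 level was 0.266 for members and 0.365 for all genes tested in DI+LPS, 0.535 and 0.876 in LPS, 0.266 and 0.311 in DI, 0.272 and 0.339 in vehicle, 0.259 and 0.291 in Irg1-/- and 0.189 and 0.288 in WT libraries. The heat map of members by library shows few rows in which a whole group changes colour.

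**Figure D1:**
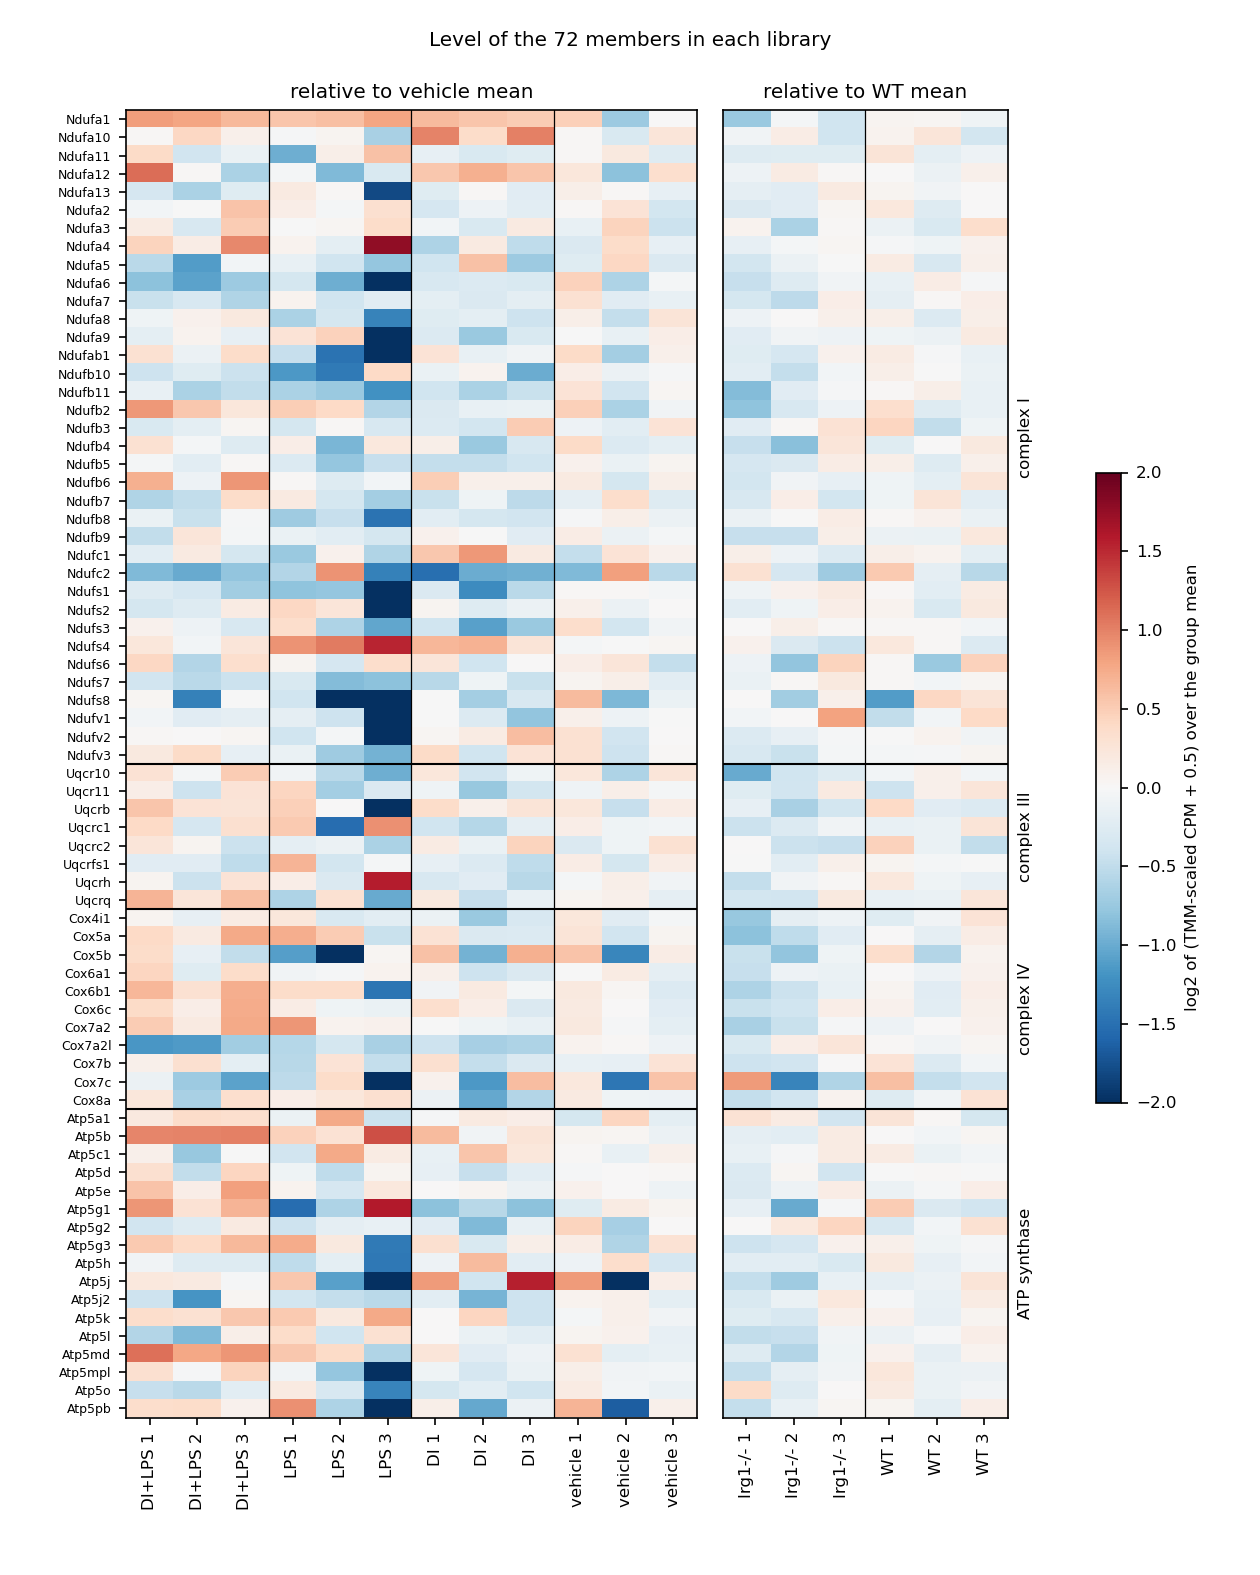
Each row is a member, sorted by complex, and each column a library; colour is the log2 ratio of (CPM + 0.5) to the mean of vehicle (experiment 1) or WT (experiment 2), with colours ending at 2 in either direction. Ndufs4 is above the vehicle mean in all 3 LPS libraries, and 6 of the 72 members were at 0 in LPS replicate 3.

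What part of the counts the members took depended on the scale. Members made up 0.513% ± 0.0657 of library counts in DI+LPS, 0.420% ± 0.0663 in LPS, 0.658% ± 0.0498 in DI and 0.792% ± 0.0522 in vehicle libraries (SD, n = 3 each). The LPS libraries, at 0.480%, 0.432% and 0.349%, all lay below the vehicle libraries, at 0.852%, 0.759% and 0.766%. On the TMM scale the members summed to 6278 ± 742 CPM in DI+LPS, 5864 ± 266 in LPS, 5357 ± 233 in DI and 5636 ± 246 in vehicle libraries (SD, n = 3 each), and the libraries of all 4 groups overlapped, between 5129 and 6977 CPM. TMM factors were 0.796 to 0.856 in DI+LPS, 0.576 to 0.803 in LPS, 1.16 to 1.28 in DI and 1.32 to 1.47 in vehicle libraries, so both scales part along the groups. The ATP synthase summed to 2044 ± 213 CPM in DI+LPS, 1788 ± 123 in LPS, 1691 ± 66.6 in DI and 1678 ± 90.9 in vehicle libraries (SD, n = 3 each). Its 3 DI+LPS libraries, at 2050.5, 1827 and 2253 CPM, lay above those of DI, at 1764, 1677 and 1633 CPM. As percent of library counts the order was reversed. There the DI+LPS libraries, at 0.176%, 0.145% and 0.180%, lay below those of DI, at 0.225%, 0.194% and 0.204%. In bulk samples, fewer cells of a type and less RNA per cell cannot be told apart.

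**Figure D2:**
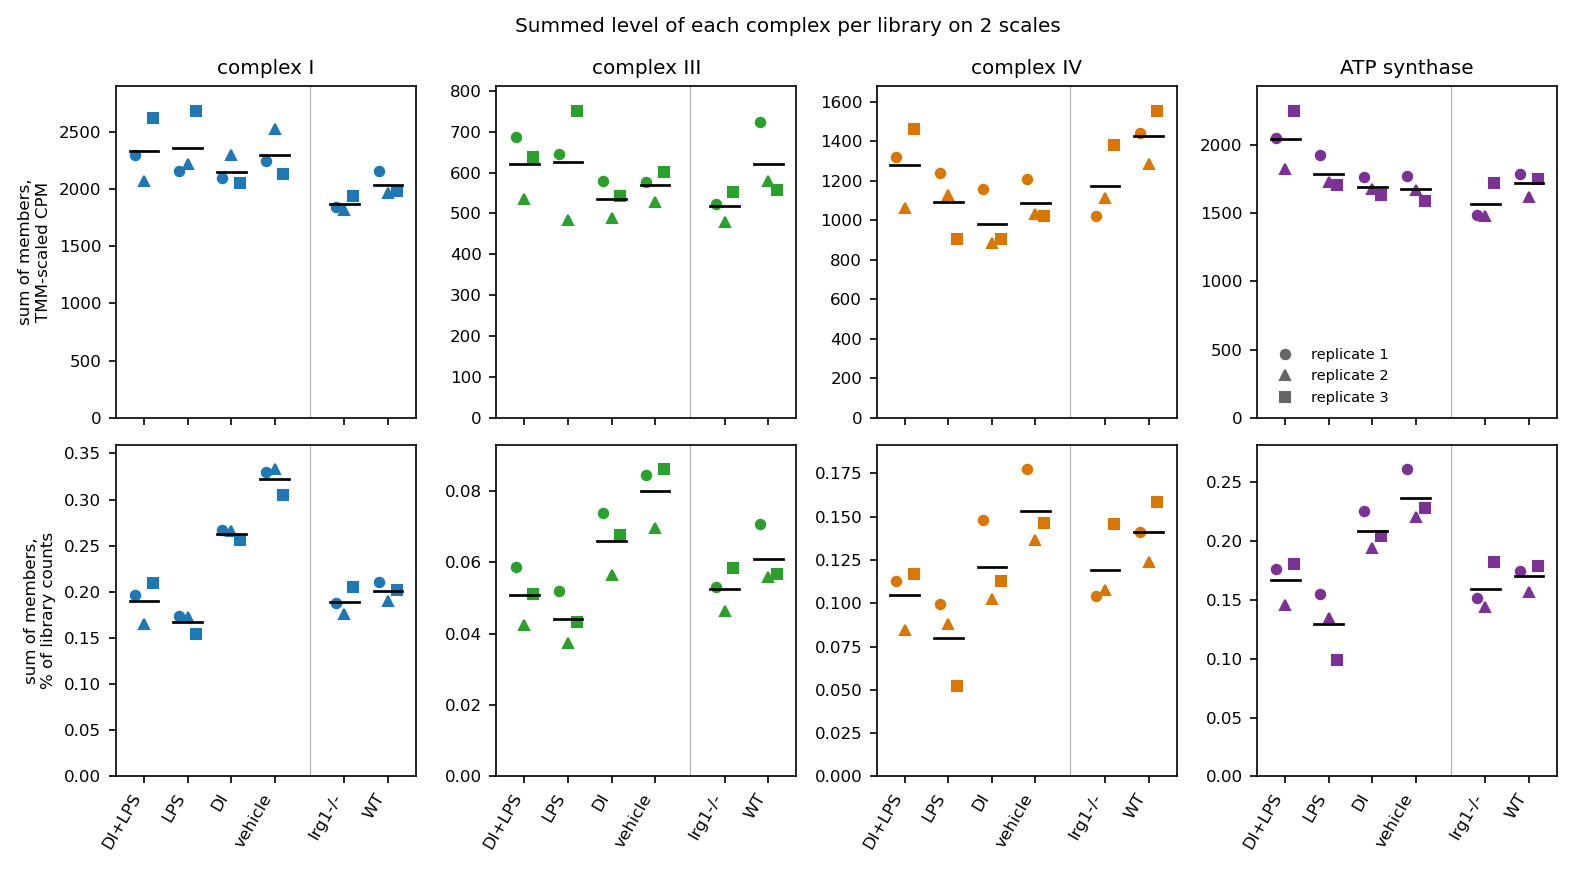
Sum of each complex per library, as TMM-scaled CPM (upper panels) and as percent of library counts (lower panels); points are libraries and lines group means. In experiment 1 the sums as percent of counts are lower in LPS than in vehicle libraries (all members 0.420% and 0.792%). The ATP synthase libraries of DI+LPS lie above those of DI on the TMM scale and below them as percent of counts.

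LPS against vehicle asked how subunit mRNAs responded to 4 h of LPS. A member was called at an adjusted p under 0.05 in edgeR's quasi-likelihood test, with Benjamini-Hochberg adjustment over all 10285 genes tested. Ndufs4, an accessory subunit that stabilises the NADH-oxidising arm of complex I, rose, and no other member was called. This is 1 of 72 members, against 34.3% of all genes tested. At an unadjusted p under 0.05, 2 members were higher and 5 lower, against 43.7% of all genes.

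Ndufs4 stood at 96.4, 106 and 149 CPM in LPS libraries and at 50.1, 51.0 and 52.7 CPM in vehicle libraries. The groups did not overlap. The log2 fold change was 1.18 ± 0.29 SE (95% interval 0.57 to 1.78, 2.26-fold, adjusted p = 0.0041), and the call held in 17 of 18 alternatives. With library totals alone it was 0.18 ± 0.29 (adjusted p = 0.601).

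The members nearest to a call were mostly complex I subunits with lower levels in LPS. Ndufb8, an accessory subunit of the membrane arm, was at 34.4, 41.0 and 20.0 CPM in LPS and at 56.1, 61.5 and 52.5 CPM in vehicle libraries (log2 fold change -0.78 ± 0.31 SE, adjusted p = 0.059). Ndufs1, the large iron-sulfur subunit that relays electrons from NADH, was at 12.6, 12.9 and 3.63 CPM in LPS and at 22.7, 22.8 and 21.8 CPM in vehicle libraries (-1.06 ± 0.42, adjusted p = 0.062). Neither pair of groups overlapped. Ndufa6 had a log2 fold change of -0.92 ± 0.37 (adjusted p = 0.062), Ndufb11 of -0.82 ± 0.33 (adjusted p = 0.065) and Ndufab1 of -1.25 ± 0.52 (adjusted p = 0.071). Atp5b, the catalytic beta subunit of the ATP synthase, was at 218, 195 and 390.3 CPM in LPS and at 165, 164 and 147 CPM in vehicle libraries (0.74 ± 0.31, adjusted p = 0.068). Here LPS replicate 3 was the highest library, while for Ndufb8 and Ndufs1 it was the lowest.

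Other subunits of the electron path and the rotary motor did not pass the test either. In complex I, Ndufv1 and Ndufv2, which accept electrons from NADH, had log2 fold changes of -0.58 ± 0.39 and -0.65 ± 0.52, and the iron-sulfur subunits Ndufs7 and Ndufs8, near the quinone site, had -0.62 ± 0.30 and -1.56 ± 0.81. In complex III, the Rieske protein Uqcrfs1 had 0.18 ± 0.33 and the core proteins Uqcrc1 and Uqcrc2 had 0.22 ± 0.45 and -0.28 ± 0.30. Cox5b, a structural subunit of complex IV, had -1.39 ± 0.79. Ndufs8 and Cox5b had the lowest fold changes of the 72, and their SE was among the widest. Ndufs8 was at 0 in LPS replicates 2 and 3, and Cox5b was at 0 in LPS replicate 2. In the ATP synthase, the catalytic partner Atp5a1 had 0.17 ± 0.32, the rotor shaft Atp5c1 0.26 ± 0.34 and the ring subunits Atp5g1, Atp5g2 and Atp5g3 0.12 ± 0.61, -0.26 ± 0.33 and 0.12 ± 0.40.

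Among members named by rule, Ndufs4 was the only one called here. Ndufa4 was at 410.2, 342 and 1341 CPM in LPS and at 320.2, 507 and 349 CPM in vehicle libraries, a log2 fold change of 0.82 ± 0.44 SE (adjusted p = 0.16). The groups overlapped, and 1 library, LPS replicate 3, was far above the rest. Uqcrh had 0.68 ± 0.39 (adjusted p = 0.18), Atp5k 0.51 ± 0.28 (adjusted p = 0.18) and Cox6c -0.01 ± 0.28 (adjusted p = 0.98). Of the complex IV subunits that exist in tissue-specific forms, Cox4i1 had -0.07, Cox6a1 -0.01, Cox7a2 0.41 and Cox8a 0.22 on the log2 scale. Of their counterparts, Cox4i2 and Cox8b were at or near 0, Cox7a1 was at most 2.79 CPM in experiment 1, and Cox6a2 was at 7.26 CPM in LPS replicate 3 and under 1 CPM in the other libraries of the experiment. Ndufa4l2, a relative of Ndufa4, was at or near 0. Cox7a2l was at 55.6, 65.1 and 52.6 CPM in LPS and at 87.5, 84.7 and 77.3 CPM in vehicle libraries (-0.52 ± 0.28, adjusted p = 0.17).

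By complex, the median log2 fold change was -0.23 for complex I, -0.11 for complex III, -0.01 for complex IV and 0.00 for the ATP synthase, beside -0.24 over all genes tested. The fold change was positive for 23 members and negative for 49, beside 4310 positive and 5975 negative of all 10285 genes tested. Groups did not overlap for 13 members, 4 higher and 9 lower in LPS, which is 18.1% of members, against 44.0% of all genes tested. The 95% interval of 30 members lay within 1 log2 unit of no change, beside 984 of all 10285 genes tested. The count moved with the scaling: RLE scaling called 1 higher and 5 lower (35.8% of all genes) and library totals 0 higher and 47 lower (56.4%). DESeq2, which differs in test and filter too, called 1 higher and 8 lower (35.2%), and leaving out LPS replicate 3 gave 1 higher and 2 lower (37.9%). The median of all genes was -0.24 with TMM, -0.33 with RLE and -1.17 with library totals, where members had a median of -1.12.

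**Figure D3:**
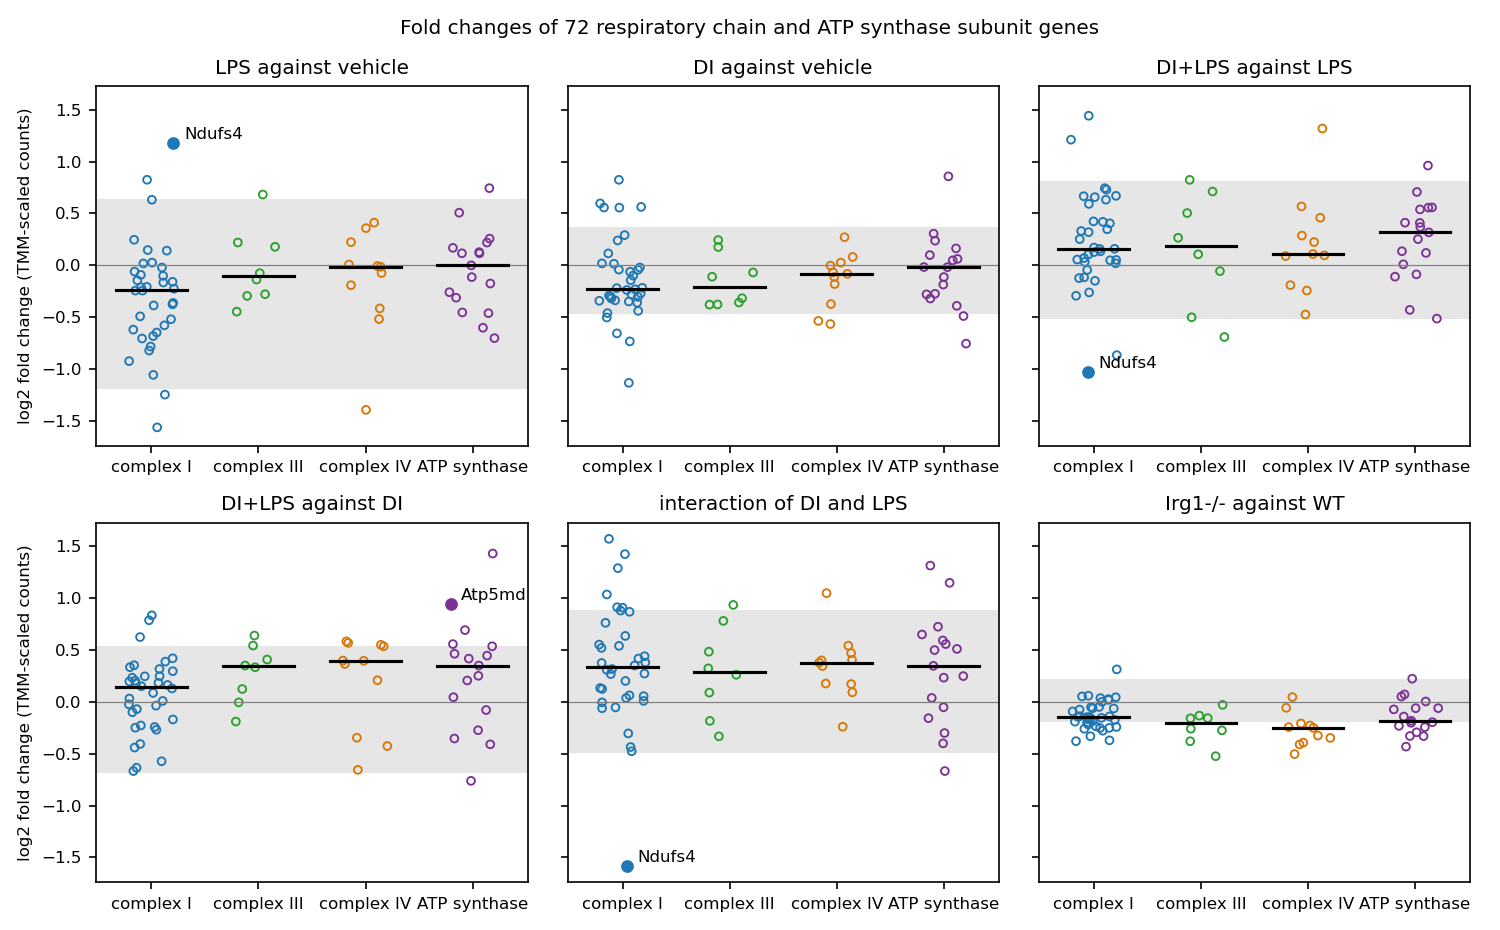
Log2 fold change of each member (points) by complex in the 6 comparisons, filled and named where called; black lines are medians and the grey band spans the quartiles of all genes tested. Most members lie near the band, and Ndufs4 (LPS against vehicle 1.18) and Atp5md (DI+LPS against DI 0.94) are the named increases.

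Other genes of the same machinery were tested in the same fit, where 34.3% of all genes were called. Of 6 genes of complex II and cytochrome c, 1 rose: Cycs, cytochrome c, was at 228.5, 111 and 258 CPM in LPS and at 45.3, 20.7 and 29.1 CPM in vehicle libraries (log2 fold change 2.63 ± 0.37 SE, adjusted p = 2.5e-05). The succinate dehydrogenase subunits Sdha, Sdhb, Sdhc and Sdhd had -0.78, -0.12, -0.47 and -0.32, and Cyc1, cytochrome c1 of complex III, -0.01, none called. AA467197 was at 553, 341 and 250.5 CPM in LPS and at 2.04, 2.38 and 1.76 CPM in vehicle libraries, a 187-fold difference (7.55 ± 0.47, adjusted p = 2.04e-09). Ucp2, an uncoupling protein homologue of the inner membrane, fell by 1.61 ± 0.40 (adjusted p = 0.0049).

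Of 43 assembly factors tested, 4 rose and 5 fell (20.9%), beside 23.5% of 17 regulators and 34.3% of all genes. Sco1, a copper chaperone of complex IV, was at 101, 116 and 23.6 CPM in LPS and at 8.55, 11.2 and 6.08 CPM in vehicle libraries (3.29 ± 0.52, adjusted p = 9.73e-05), and Coa5 rose by 2.01 ± 0.33 (adjusted p = 0.00014). Sco1 overlaps Adprm, and reads of the pair cannot be told apart without the strand setting. Sco2, its paralogue, had 0 counts in the LPS libraries against 123 in vehicle libraries, at least 11.3-fold lower at a floor of 3 counts over the group. Sco2 overlaps Ncaph2 and Tymp, with the same limit. Nubpl, an iron-sulfur carrier for complex I, had 1 count in LPS against 66 in vehicle libraries, a ratio of 0.0551 (95% counting interval 0.00138 to 0.318). It was at 0.331, 0 and 0 CPM in LPS and at 3.69, 0 and 4.48 CPM in vehicle libraries, so the groups overlapped. Of 17 regulators, 3 rose (Ppargc1b by 2.59 ± 0.57, adjusted p = 0.0020; Hif1a by 1.96 ± 0.43, adjusted p = 0.0020; Nrf1 by 1.18 ± 0.44, adjusted p = 0.044) and Tfeb fell by 2.65 ± 0.60 (adjusted p = 0.0024). Nrf1 was at 36.1, 52.8 and 145 CPM in LPS and at 22.5, 45.2 and 31.5 CPM in vehicle libraries. Hif1a was at 346, 502 and 90.8 CPM in LPS and at 70.6, 76.2 and 96.6 CPM in vehicle libraries. For Nrf1 and Hif1a the groups overlapped, and LPS replicate 3 was the highest LPS library for Nrf1 and the lowest for Hif1a. Pprc1, Gabpa, Esrra, Yy1 and Tfam were not called, and Ppargc1a was at 0 in all but 1 library of the experiment.

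DI against vehicle asked what the compound did alone. No member of 72 was called in edgeR, against 2.84% of all genes tested, or in DESeq2, against 6.07%. At an unadjusted p under 0.05, 1 member was higher and 1 lower, against 13.8% of all genes. Ndufa10, an accessory subunit of complex I, was at 189, 122 and 191 CPM in DI and at 95.7, 76.5 and 111 CPM in vehicle libraries (log2 fold change 0.82 ± 0.30 SE, adjusted p = 0.18). Ndufc2 was at 76.5, 110 and 113 CPM in DI and at 119, 388 and 150.5 CPM in vehicle libraries (-1.13 ± 0.48, adjusted p = 0.285), with the high value in vehicle replicate 2. Leaving out LPS replicate 3, which shares the estimate of spread, called Ndufa10 alone, against 7.56% of all genes.

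Ndufs4 was at 81.8, 83.1 and 61.3 CPM in DI, above all 3 vehicle libraries, but was not called (0.56 ± 0.28, adjusted p = 0.40). Cox7a2l was at 62.0, 52.2 and 54.3 CPM in DI, below the vehicle libraries (-0.57 ± 0.27, adjusted p = 0.37). Groups did not overlap for 27.8% of members and 30.5% of all genes tested. The medians were -0.23 for complex I, -0.21 for complex III, -0.08 for complex IV and -0.02 for the ATP synthase, beside -0.05 over all genes tested. The 95% interval lay within 1 log2 unit of no change for 36 members, beside 2008 of all 10285 genes tested. No gene of complex II and cytochrome c, of the assembly factors, of the regulators or of the 78 mitochondrial ribosomal proteins was called. Acod1 rose by 2.86 (adjusted p = 0.0027), to 125, 46.1 and 109 CPM in DI libraries, against 12.6, 17.0 and 9.29 CPM in vehicle libraries.

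DI+LPS against LPS asked how the compound altered the state after LPS. Of 72 members 1 fell, against 15.9% of all genes called. The comparison shares its LPS libraries with the first. The member was Ndufs4, at 60.4, 49.6 and 60.5 CPM in DI+LPS, below the 96.4, 106 and 149 CPM of the LPS libraries. Groups did not overlap for 16.7% of members and 29.6% of all genes tested. The log2 fold change of Ndufs4 was -1.03 ± 0.29 SE (95% interval -1.63 to -0.42, 2.04-fold, adjusted p = 0.021). The call held in 12 of 18 alternatives. It was lost without each of the 3 DI+LPS replicates in turn (adjusted p 0.0582 to 0.0901), with library totals (0.0701), without the filter on low counts (0.0705) and in a fit of these 2 groups only (0.0945).

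At an unadjusted p under 0.05, 5 members were higher and 1, Ndufs4, lower, against 29.5% of all genes. Ndufab1 was at 45.9, 34.0 and 47.8 CPM in DI+LPS and at 26.8, 12.9 and 0 CPM in LPS libraries (1.44 ± 0.52, adjusted p = 0.069). Atp5mpl, a small membrane subunit of the ATP synthase, was at 108, 85.7 and 118 CPM in DI+LPS and at 82.4, 50.5 and 20.0 CPM in LPS libraries (0.96 ± 0.36, adjusted p = 0.082). In both, LPS replicate 3 was the lowest library. The medians were 0.16, 0.19, 0.11 and 0.32 for complexes I, III and IV and the ATP synthase, beside 0.13 over all genes tested. Of the members 54 were positive and 18 negative, beside 5715 positive and 4559 negative of all 10285 genes tested. Without LPS replicate 1 the test called 4 members (17.5% of all genes), without LPS replicate 2 it called 2 (14.8%) and without LPS replicate 3 it called 3 (18.3%), Ndufs4 among them each time.

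AA467197 was at 36.1, 31.8 and 54.0 CPM in DI+LPS, against 553, 341 and 250.5 CPM in LPS libraries, 9.44-fold lower (-3.24 ± 0.37, adjusted p = 1.6e-05). Ppargc1b, a coactivator of respiratory genes, was at 1.76, 2.45 and 1.86 CPM in DI+LPS and at 25.5, 12.9 and 14.5 CPM in LPS libraries, and was the called member of the 17 regulators (-3.15 ± 0.61, adjusted p = 0.0019). Of 43 assembly factors 2 rose and 1 fell (6.98%), beside 5.88% of the regulators and 15.9% of all genes. Sco1 fell by 2.47 ± 0.50 (adjusted p = 0.0028), and Uqcc3, a complex III factor, rose by 1.84 ± 0.60 (adjusted p = 0.045). Sco2, with 40 counts in DI+LPS against 0 in LPS libraries, was at least 6.16-fold higher. Atpif1, the inhibitor of ATP synthase run in reverse, was at 235, 201 and 215 CPM in DI+LPS and at 144, 85.3 and 30.9 CPM in LPS libraries (1.28 ± 0.41, adjusted p = 0.040, called in 9 of 18 alternatives). Cycs did not pass the test (-0.95 ± 0.35, adjusted p = 0.074).

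**Figure D4:**
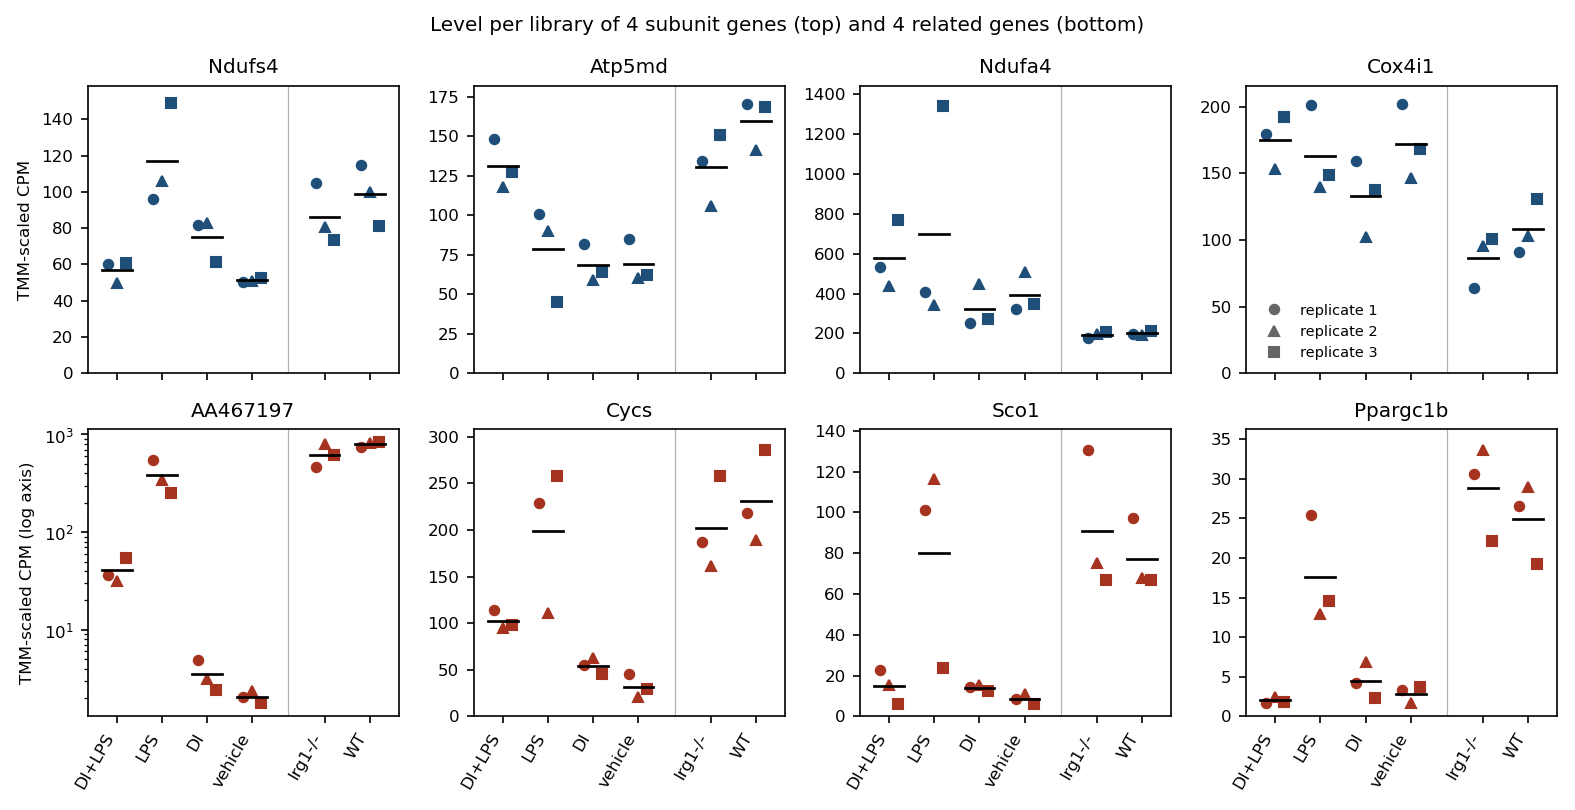
TMM-scaled CPM per library (points) and group mean (lines) for 4 members, Ndufs4, Atp5md, Ndufa4 and Cox4i1, and for AA467197 (log axis), Cycs, Sco1 and Ppargc1b. The 3 LPS libraries of Ndufs4 lie above the other 9 of experiment 1, from 96.4 to 149 CPM.

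DI+LPS against DI asked what LPS did after the compound. Atp5md (Entrez gene 66477, chr19:47083471-47090647), a small membrane subunit of the ATP synthase, rose, 1 of 72 members, against 18.9% of all genes. It was at 149, 118 and 128 CPM in DI+LPS and at 81.8, 59.1 and 64.1 CPM in DI libraries. The groups did not overlap, which held for 44.6% of all genes tested. The log2 fold change was 0.94 ± 0.31 SE (95% interval 0.28 to 1.60, 1.92-fold, adjusted p = 0.042). The call held in 5 of 18 alternatives. It was lost in 10 of the 12 fits that each left out a library (adjusted p 0.0521 to 0.185), all but those without LPS replicate 1 or 3, and with RLE scaling (0.0745), library totals (0.487) or no filter (0.0803). It overlaps Taf5, and reads of the pair cannot be told apart without the strand setting.

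At an unadjusted p under 0.05, 3 members were higher and 1 lower, against 29.9% of all genes. Atp5g1, which makes the rotor ring of the ATP synthase, was at 23.3, 15.3 and 20.2 CPM in DI+LPS and at 6.83, 8.26 and 6.81 CPM in DI libraries (1.43 ± 0.55, adjusted p = 0.079). Atp5b was at 313, 316 and 320 CPM in DI+LPS and at 247, 151 and 189 CPM in DI libraries (0.69 ± 0.30, adjusted p = 0.13). Both sets of libraries were apart, as were those of 30.6% of members and 44.6% of all genes tested. Ndufs4, which rose after LPS without the compound, had -0.41 ± 0.28 here (adjusted p = 0.36). The medians were 0.14, 0.34, 0.40 and 0.35 for complexes I, III and IV and the ATP synthase, beside -0.06 over all genes tested. Of the members 48 were positive and 24 negative, beside 4882 positive and 5403 negative of all 10285 genes tested. The same count of called members was 0 with RLE scaling (19.9% of all genes), 5 lower with library totals (26.6%), and 5 higher and 1 lower in a fit of these 2 groups only (32.7%), the 5 higher being Atp5b, Atp5g1, Atp5md, Ndufa4 and Ndufb2.

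Among other genes of the chain, AA467197 rose by 3.53 ± 0.39 (adjusted p = 2.7e-06), and of 43 assembly factors Coa5 (1.88 ± 0.33, adjusted p = 0.00035) and Cox17 (0.98 ± 0.29, adjusted p = 0.022), a copper carrier to complex IV, rose. Of 17 regulators 3 rose (Myc by 2.13 ± 0.52, Hif1a by 1.49 ± 0.43, Gabpa by 1.16 ± 0.38) and Tfeb fell by 3.02 ± 0.58 (adjusted p = 0.00088). The calls were 23.5% of the regulators and 4.65% of the assembly factors, against 18.9% of all genes.

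The interaction tested whether the effect of DI differed with and without LPS. It was called for 1 member of 72, against 2.91% of all genes. For Ndufs4 it was -1.58 ± 0.40 SE on the log2 scale (95% interval -2.43 to -0.74, adjusted p = 0.039). The effect of DI was -1.03 with LPS and 0.56 without it, and the called test is of the difference of the 2. The interaction was called in 5 of 17 alternatives: it held with each of the 3 LPS replicates left out in turn (adjusted p 0.0165 to 0.0458), with RLE scaling and with DESeq2, and was lost with each of the other 9 libraries left out in turn (0.0605 to 0.115), with the replicate block (0.0536), without the filter (0.0727) and with library totals (0.121). The medians were 0.33, 0.29, 0.38 and 0.35 for complexes I, III and IV and the ATP synthase, beside 0.17 over all genes tested. The interval of 7 members lay within 1 log2 unit of no difference, beside 224 of all 10285 genes tested. The interaction was also called for AA467197 (-4.02 ± 0.56, adjusted p = 0.00044), Ppargc1b (-3.72 ± 0.82, adjusted p = 0.018) and Sco1 (-3.19 ± 0.70, adjusted p = 0.018).

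Irg1-/- against WT asked how subunit mRNAs stood in activated macrophages without the itaconate-making enzyme. No member was called in edgeR, against 0.0632% of all genes (6 of 9491), or in DESeq2, against 0.592%. At an unadjusted p under 0.05 in edgeR's test, 0 members were higher and 2 lower, against 7.01% of all genes. Irg1-/- libraries had 5120 ± 417 CPM over all members and WT libraries 5804 ± 340 CPM (SD, n = 3 each). Complex IV summed to 1172 ± 188 CPM in Irg1-/- and 1428 ± 137 CPM in WT libraries. For each sum the groups overlapped. Irg1-/- replicate 3, at 5601 CPM over all members and 1383 CPM in complex IV, lay above WT replicate 2, at 5442 and 1284 CPM.

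Fold changes were negative for 60 of 72 members, beside 4601 of all 9491 genes tested. The medians were -0.15 for complex I, -0.21 for complex III, -0.25 for complex IV and -0.18 for the ATP synthase, beside 0.01 over all genes tested. All 8 complex III members and 10 of 11 complex IV members were negative. Between same-numbered libraries the median over members was -0.28, -0.13 and -0.04 in pairs 1, 2 and 3, so pair 3 showed the least. Groups did not overlap for 6 members, all lower in Irg1-/-, which is 8.33% of members, against 13.4% of all genes. The 95% interval of 66 members lay within 1 log2 unit of no change, beside 6491 of all 9491 genes tested.

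**Figure D5:**
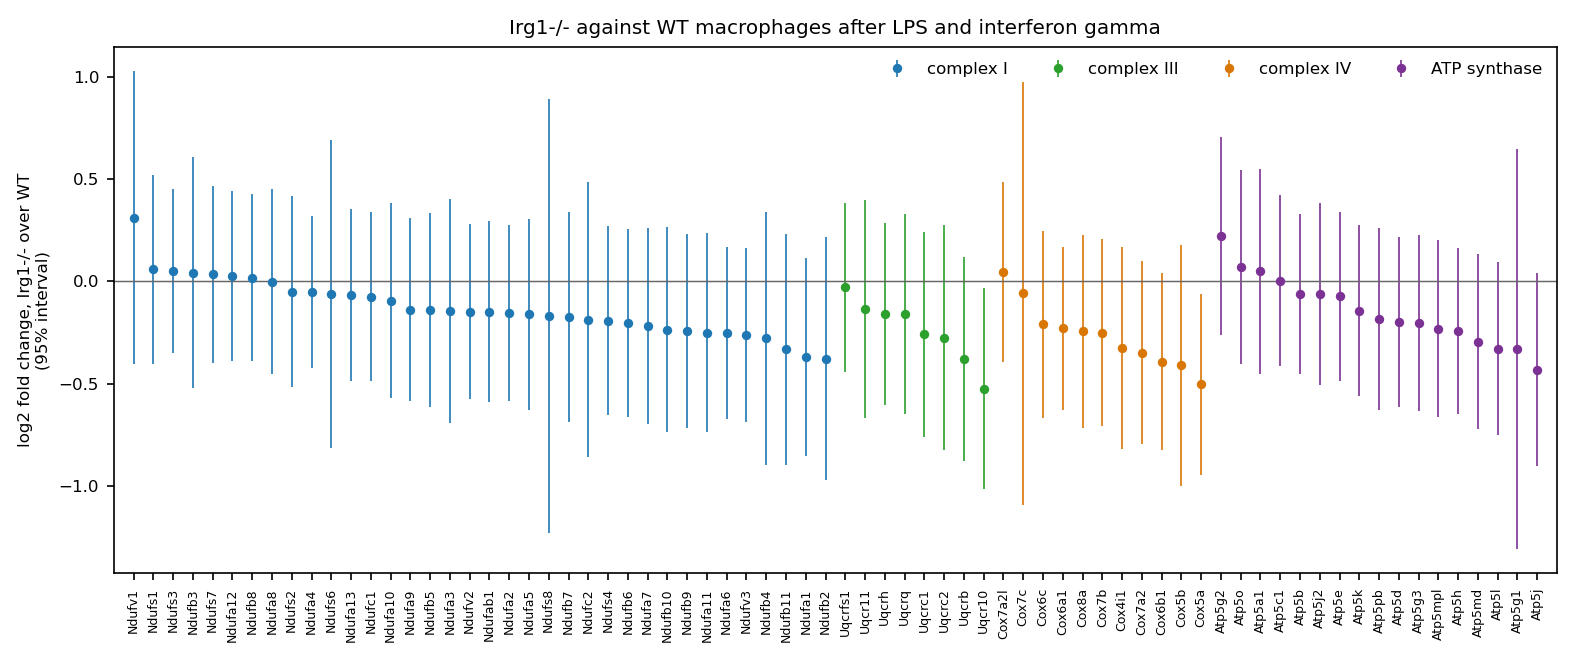
Log2 fold change, Irg1-/- over WT, with its 95% interval for the 72 members, by complex; the horizontal line marks no change. Of the 72 points 60 lie below 0, and 2 intervals, of Cox5a and Uqcr10, leave 0 out.

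Samples with the same replicate number varied together, so a fit with the number as a block was made as well. It called 4 members lower, against 6.26% of all genes. Cox5a (Entrez gene 12858, chr9:57517328-57532427), a nuclear subunit of complex IV, was at 109, 135 and 164 CPM in Irg1-/- and at 194, 170 and 214 CPM in WT libraries. Its log2 fold change was -0.50 ± 0.20 SE without the block (adjusted p = 0.635) and -0.52 ± 0.11 with it (adjusted p = 0.0020). Uqcr10 (Entrez gene 66152, chr11:4701968-4704344), a small complex III subunit, was at 28.6, 43.7 and 48.0 CPM in Irg1-/- and at 55.7, 61.9 and 55.4 CPM in WT libraries (-0.52 ± 0.22, adjusted p = 0.674; with the block -0.54 ± 0.15, adjusted p = 0.023). Neither overlapped between groups.

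Cox6b1, which bridges the complex IV dimer, was at 89.7, 102 and 124 CPM in Irg1-/- and at 144, 119 and 153 CPM in WT libraries (with the block -0.40 ± 0.12, adjusted p = 0.030). Atp5j, coupling factor 6 of the ATP synthase, was at 60.6, 51.3 and 76.5 CPM in Irg1-/- and at 74.6, 78.1 and 102 CPM in WT libraries (with the block -0.43 ± 0.13, adjusted p = 0.032). In every same-numbered pair the Irg1-/- library of these 4 genes was the lower. The 4 were picked by the fit that compares same-numbered libraries, so this order adds no separate support. Atp5j overlaps Gabpa, and its reads cannot be set apart from it.

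Members called in experiment 1 did not pass here. Ndufs4 was at 105, 80.7 and 73.6 CPM in Irg1-/- and at 115, 100.1 and 81.4 CPM in WT libraries (-0.19 ± 0.21, adjusted p = 0.95), and Atp5md had -0.29 ± 0.20 (adjusted p = 0.88). Ndufa4 had -0.05 ± 0.17, Uqcrh -0.16 ± 0.20, Cox6c -0.21 ± 0.21, Atp5k -0.14 ± 0.19, Cox4i1 -0.33 ± 0.23, Cox6a1 -0.23, Cox7a2 -0.35 ± 0.20, Cox7a2l 0.05 and Cox8a -0.24. AA467197 was at 462, 790.5 and 616 CPM in Irg1-/- and at 752, 816 and 831 CPM in WT libraries (-0.36 ± 0.21, adjusted p = 0.84). None of the 6 genes of complex II and cytochrome c, 42 assembly factors, 12 regulators or 78 mitochondrial ribosomal proteins tested was called.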

How the data were processed

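Polyadenylated RNA of 18 libraries was read from the 3′ end with barcoded oligo-dT primers and 12 PCR cycles, per the labels. The authors deposited counts per Entrez gene, unscaled whole numbers. STAR, HTSeq, DESeq2 and mm10 are named in the submitters' processing notes; annotation, counting options and strand setting are not given in the sources used here. Since the labels describe no molecular identifiers, PCR copies are counted too. Intervals of fold changes come from the fit and carry the spread between libraries, while an interval called a counting interval, or a floor, covers counting error alone. Of 24052 identifiers 23969 matched a symbol. Overlapping genes cannot be told apart: 23 members overlap another gene and 9 have a named pseudogene copy.

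Each experiment was fitted whole with edgeR 4.0.16 in R 4.3.3 (TMM, filterByExpr with a minimum count of 10, a mean per group, prior count 0.125), with a 2-sided quasi-likelihood F test and Benjamini-Hochberg adjustment over 10285 genes (experiment 1, 12 libraries) or 9491 (experiment 2, 6 libraries); genes were called at 0.05. SE is the fold change over the root of F. The code was tested on simulated data. Alternatives were RLE scaling, library totals, no filter, DESeq2 1.42.0, a replicate block, only the 2 groups compared and leaving out each library. In experiment 2 same-numbered libraries deviated together (correlations 0.374, 0.354 and 0.455), so the number pairs them by this check, not by the labels.

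The members and gene lists were chosen with earlier results of these data known. Named by rule were the called members, the highest member of each complex and a set of alternative subunits and regulators; other members were named after their values were seen. Tables came from Python 3.11.15.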

Additional observations from a re-analysis of the deposited data

Results flagged for a closer look

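For 6 genes among the members and lists, the effect of DI differed with and without LPS, beside 299 of all 10285 genes tested (2.91%). The test was the interaction term of edgeR's quasi-likelihood test with Benjamini-Hochberg adjustment. Beside the 72 members, the lists tested held 6 genes of complex II and cytochrome c, 43 assembly factors and 17 regulators. They also held 7 alternative and inducible relatives and 78 mitochondrial ribosomal proteins, and Acod1 was looked at too. Called were 4.65% of the assembly factors, 5.88% of the regulators and 14.3% of the relatives, by 1 or 2 genes each. No gene of complex II and cytochrome c or of the ribosomal proteins was called. These counts were set against no test. Among members the call was for Ndufs4, 1 of 72 (1.39%), at -1.58 on the log2 scale (adjusted p = 0.039), and it held in 5 of 17 alternatives. Outside them it was AA467197 at -4.02, Ppargc1b at -3.72, Sco1 at -3.19, Acod1 at -2.92 and Sco2 at 7.45. All 3 LPS libraries of Sco2 were at 0, so its fitted value depends on the prior count and is no estimate of size. Acod1 was at 11576, 22163 and 9060 CPM in DI+LPS, 17095, 20526 and 6989 CPM in LPS, 125, 46.1 and 109 CPM in DI and 12.6, 17.0 and 9.29 CPM in vehicle libraries.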

How the results depend on the processing

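Direction was followed for the named single genes only, and none of their calls changed direction under the alternatives run. The members that were called could differ in direction. For DI+LPS against LPS 1 was lower in the reported fit and 1 higher without the filter. For DI+LPS against DI 1 was higher in the reported fit and 5 were lower with library totals. Over single genes and settings other than a left-out library, 1906 results stayed on their side of the threshold, 40 lost the call and 74 gained it. With a library left out these were 3779, 125 and 38. The number of members called moved by more than 1.5 times as follows. For LPS against vehicle it was 1 in the reported fit, 6 with RLE scaling, 47 with library totals, 3 without the filter and 9 with DESeq2. For DI+LPS against LPS it was 0 with library totals, 2 with DESeq2 and 0 with only the 2 groups compared. For DI+LPS against DI it was 0 with RLE scaling, 5 with library totals, 2 with DESeq2 and 6 with only the 2 groups compared. For the interaction it was 0 with library totals, 0 without the filter and 0 with the replicate block. For Irg1-/- against WT it was 4 with the replicate block and 0 otherwise. The cause was not tested. With each library left out in turn, the counts ran from 1 to 5 for LPS against vehicle, 0 to 1 for DI against vehicle, 0 to 4 for DI+LPS against LPS, 0 to 4 for DI+LPS against DI and 0 to 2 for the interaction, and stayed at 0 for Irg1-/- against WT. Without LPS replicate 3 the shares of all genes called in experiment 1 were 37.9%, 7.56%, 18.3%, 26.6% and 7.58%, in the same order of comparisons.

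Of the calls over all genes, 46.5% were higher in LPS than in vehicle with TMM, 41.5% with RLE and 14.7% with library totals. For DI+LPS against DI these shares were 60.1%, 50.4% and 25.9%, for DI+LPS against LPS 52.7%, 48.0% and 63.2%, and for the interaction 47.8%, 44.2% and 71.3%, in the same order of scalings. In experiment 1 same-numbered libraries did not deviate together in every pair (correlations -0.141 to 0.231). The replicate block called 1 member for LPS against vehicle (32.8% of all genes) and 0 for DI against vehicle (2.68%). It called 1 for DI+LPS against LPS (14.2%) and 1 for DI+LPS against DI (18.5%). Depth limits the LPS group most.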

Other observations

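The 78 mitochondrial ribosomal proteins, which build the machinery that translates the mitochondrially encoded subunits, were tested in the same fits. In LPS against vehicle 3 rose and 11 fell, 14 of 78, beside 34.3% of all genes tested. Mrpl52 was at 96.7, 40.4 and 38.1 CPM in LPS and at 21.1, 19.7 and 19.2 CPM in vehicle libraries (log2 fold change 1.58 ± 0.39 SE, edgeR adjusted p = 0.0041), and Mrpl13 rose by 1.18 ± 0.34 (adjusted p = 0.012). Mrps35 was at 2.65, 3.37 and 0 CPM in LPS and at 15.8, 12.2 and 10.6 CPM in vehicle libraries (-2.36 ± 0.56, adjusted p = 0.0035), and Mrpl58, a release factor in the ribosome, fell by 2.26 ± 0.83 (adjusted p = 0.044).

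In DI+LPS against LPS 3 rose and 1 fell, beside 15.9% of all genes. Mrpl34 was at 19.6, 13.8 and 19.3 CPM in DI+LPS and at 4.30, 7.30 and 1.82 CPM in LPS libraries (1.82 ± 0.49, adjusted p = 0.016). Mrpl13 was at 27.8, 18.7 and 45.6 CPM in DI+LPS and at 76.5, 65.1 and 72.6 CPM in LPS libraries (-1.22 ± 0.34, adjusted p = 0.021). In DI+LPS against DI 3 rose, Mrpl52 by 1.57 ± 0.38 (adjusted p = 0.0064), Mrpl30 by 1.19 ± 0.30 (adjusted p = 0.0079) and Mrpl54 by 1.17 ± 0.35 (adjusted p = 0.025), beside 18.9% of all genes. None was called in DI against vehicle, in the interaction or in Irg1-/- against WT.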
